A study of Homo sapiens with 4 samples.

Results

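The apolipoprotein genes APOE, APOC1, APOC3, APOA1, APOA2, APOA4, APOB, APOH, APOM and APOL1 make up 10 of the 61541 genes quantified in MHCC97H cells, an established human hepatocellular carcinoma (HCC) line, with and without knockdown of UBXN1. UBXN1 is a UBX-domain protein that binds ubiquitin and the segregase p97. The 10 genes were selected on the values of the contrast described here, in which APOE had been seen to be strongly higher after knockdown. That contrast is therefore given for them as a description, without a p-value. The shCon group was 2 libraries of MHCC97H cells that carried a control shRNA, and the shUBXN1 group was 2 libraries of MHCC97H cells that carried an shRNA against UBXN1. The methods give DMEM with fetal bovine serum and antibiotics as the medium, and the labels name no drug treatment. The methods describe lentiviral delivery of shRNA from pLKO.1 and name shRFP as the control, whereas the labels name shCon. The shRNA sequence used for the sequenced cells, and whether the 2 libraries of a group came from separate cultures, are not given in the sources used here, so the p-values below measure only the spread between these libraries.

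Apolipoproteins are the protein part of lipoproteins, the particles that carry cholesterol and triglycerides through blood, and most are made by hepatocytes and enterocytes. APOB is the structural protein of very low-density and low-density lipoprotein (VLDL and LDL), whereas APOA1 and APOA2 form high-density lipoprotein (HDL). APOE binds the receptors that clear particle remnants, APOC1 and APOC3 slow lipolysis and clearance, and APOA4 travels on chylomicrons and HDL. APOM carries sphingosine 1-phosphate on HDL, APOH (beta-2-glycoprotein I) binds anionic phospholipid, and APOL1 is an interferon-inducible, pore-forming protein of a trypanolytic HDL particle. APOE and APOC1 lie next to each other on chromosome 19 and share distal hepatic control regions, and APOA1, APOC3 and APOA4 form a cluster on chromosome 11. Macrophages also make APOE and APOC1, and liver X receptors, the nuclear receptors that sense oxysterols, act on both genes.

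The proximal promoters are shown for 4 of the genes that differed between the groups, APOE, APOC1 and APOA4 on the higher side and APOH on the lower side, because these genes lie beside the others in one pathway but were changed to unlike extents and in unlike directions. Entries were matched for 6 of the 10 genes, and those of APOA2 and APOM are not printed because both genes had almost no counts. Each sequence is the 250 bases before the RefSeq start of the gene in GRCh38.p14, written 5′ to 3′ on the strand of the gene. The windows of APOC1 and APOH lie inside the longer gene spans of GENCODE given below, whose outermost transcripts start further upstream. Capitals mark matches to GGGCGG (GC box) or CCAAT on either strand, so a match on the other strand reads as CCGCCC or ATTGG.
APOE, chr19:44905546-44905795, plus strand: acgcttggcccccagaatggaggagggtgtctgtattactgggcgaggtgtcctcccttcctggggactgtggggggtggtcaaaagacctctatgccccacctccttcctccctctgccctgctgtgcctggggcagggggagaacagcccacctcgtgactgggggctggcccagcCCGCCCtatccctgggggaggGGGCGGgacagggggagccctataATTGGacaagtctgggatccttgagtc
APOC1, chr19:44914422-44914671, plus strand: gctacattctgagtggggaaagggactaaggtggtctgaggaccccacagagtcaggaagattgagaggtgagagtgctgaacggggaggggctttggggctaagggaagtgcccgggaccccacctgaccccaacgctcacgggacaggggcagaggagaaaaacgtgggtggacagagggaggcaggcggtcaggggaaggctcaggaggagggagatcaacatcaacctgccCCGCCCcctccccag
APOA4, chr11:116823305-116823554, minus strand: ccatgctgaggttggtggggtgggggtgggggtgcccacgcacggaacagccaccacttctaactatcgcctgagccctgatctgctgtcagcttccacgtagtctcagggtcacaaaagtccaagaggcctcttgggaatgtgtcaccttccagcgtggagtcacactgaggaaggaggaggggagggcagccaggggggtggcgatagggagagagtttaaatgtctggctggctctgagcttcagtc
APOH, chr17:66229416-66229665, minus strand: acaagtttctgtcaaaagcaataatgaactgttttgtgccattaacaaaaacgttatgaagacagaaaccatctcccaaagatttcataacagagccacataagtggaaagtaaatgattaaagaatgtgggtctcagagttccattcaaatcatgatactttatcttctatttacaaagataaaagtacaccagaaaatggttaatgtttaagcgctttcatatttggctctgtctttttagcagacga

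The APOE promoter held 2 GC boxes, starting 72 and 51 bases before the start, and a CCAAT box on the opposite strand at 27 bases. The APOC1 promoter held a GC box at 15 bases, and neither motif was found in the APOA4 or APOH windows. A GC box was present in 42.6% and a CCAAT box in 32.0% of the 35116 promoters of the same length. TATAAA (10.7% of promoters), AGGTCA (the nuclear receptor half-site, 12.1%) and the core of the interferon response element (GAAA, any 2 bases, GAAA, 3.02%) were searched on both strands and matched none of these 4 windows. GC content was 64.8% for APOE, 62.4% for APOC1, 59.2% for APOA4 and 33.2% for APOH, beside a median of 58% over the promoters. These matches describe letters only and say nothing of factor binding.

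The libraries held 23373700 to 27380508 expected counts, and 23580 to 25517 genes had at least 1 count. UBXN1, which lies on chromosome 11, had 1788 and 1817 counts in shCon against 416 and 433 in shUBXN1, or 72.2 ± 7.27 and 17.7 ± 1.19 CPM (mean ± SD, n = 2), where CPM is the count scaled to the TMM-adjusted total of the library. Its log2 fold change was -2.03 (SE 0.0963, adjusted p = 9.98e-10 by edgeR's quasi-likelihood test). Counts of mitochondrially encoded genes made up 5.28% and 5.59% of the shCon libraries and 7.43% and 8.27% of the shUBXN1 libraries. The part of this difference in the values below was not tested.

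After UBXN1 knockdown, APOE, APOC1 and APOA4 had a higher transcript level and APOB, APOH and APOL1 a lower one, whereas the shCon and shUBXN1 values of APOA1 overlapped. APOM, APOA2 and APOC3 did not pass the filter on low counts, so 7 of the 10 genes entered the fit. A gene was called at a Benjamini-Hochberg adjusted p under 0.05 over the 16863 genes that passed. At that threshold 3 of the apolipoprotein genes were called higher, beside 28.0% of all genes tested, and 3 were called lower, beside 28.2%. With a fold change of at least 2 as well, 2 were called higher (APOE and APOA4), beside 11.3% of all genes, and APOB was called lower, beside 5.79%. The contrast chose these genes, so nothing is read from the counts. APOA4 passed the filter on low counts in 1 of the shCon libraries and both shUBXN1 libraries. The median log2 fold change over the 16863 genes was 0.02.

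**Figure D1:**
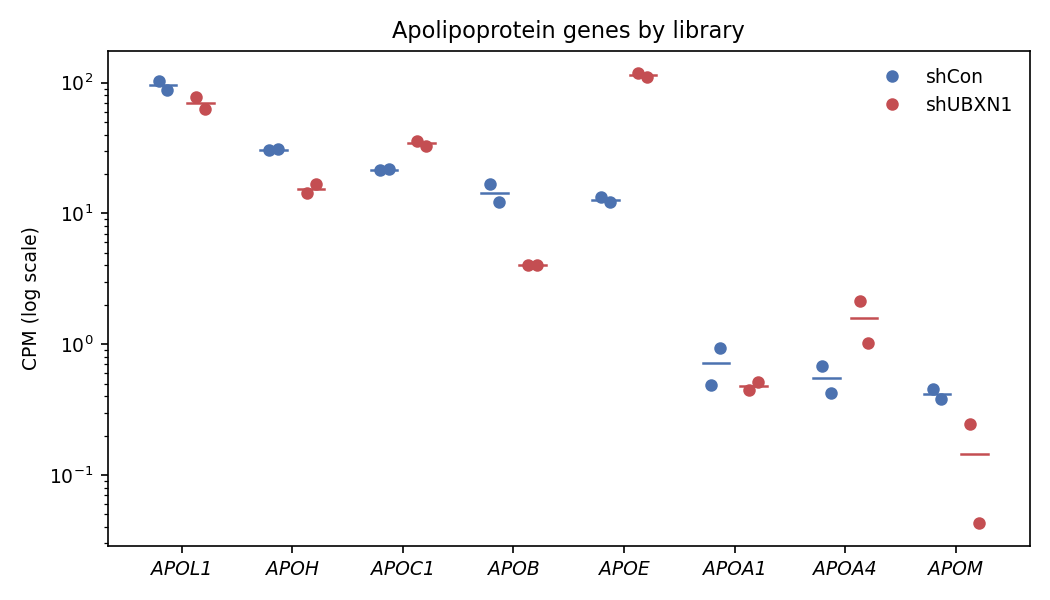
Transcript level (CPM, log scale) of the 8 apolipoprotein genes that had counts in both first replicates. Points are libraries (shCon blue, shUBXN1 red) and bars are the mean of the 2 libraries of a group. CPM is not corrected for gene length, so each gene is read against itself. The shUBXN1 libraries of APOE lie at 118 and 110 CPM, far above the shCon libraries at 13.3 and 12.2 CPM.

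APOE (ENSG00000130203, chr19:44905791-44909393, plus strand, GRCh38) was the apolipoprotein gene with the greatest difference. It had 354 and 288 counts in shCon against 2925 and 2568 in shUBXN1. In CPM the shCon libraries were at 13.3 and 12.2 and the shUBXN1 libraries at 118 and 110. Both shUBXN1 libraries were thus far above both shCon libraries, and the distance between the groups was much wider than the distance within either. The mean CPM went from 12.8 ± 0.728 to 114 ± 6.02 (SD, n = 2), an 8.93-fold difference, and the fitted log2 fold change was 3.16 (SE 0.0891). Over all genes tested, APOE ranked 190 by log2 fold change. Most genes with a greater change had a lower mean log2 CPM, a measure not corrected for gene length. APOE ranked 2 among genes whose mean log2 CPM was at least as high as its own. The GC content of its annotated transcripts was 66.1%, against a median of 49.0% over genes tested, which sets APOE apart from the typical gene. With a correction for GC content the log2 fold change of APOE was 2.92.

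APOC1 (ENSG00000130208, chr19:44914247-44919349, plus strand) lies just downstream of APOE and encodes a small inhibitor of receptor-mediated particle uptake. Counts were 569 and 513 in shCon against 885 and 772 in shUBXN1. The groups did not overlap, but the gap was far narrower than for APOE. The mean CPM was 21.6 ± 0.350 in shCon and 34.4 ± 1.97 in shUBXN1, a 1.59-fold difference with a log2 fold change of 0.67 (SE 0.0930). The transcript ENSG00000280087, which overlaps 40.7% of the exon bases of APOC1 on the same strand, had only 5 and 13 counts in shCon against 14 and 20 in shUBXN1. It overlaps 0.882% of the exon bases of APOE.

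The neighbours of APOE and APOC1 did not share a direction. Upstream, the adhesion genes BCAM and NECTIN2 rose with log2 fold changes of 0.90 (SE 0.0949, adjusted p = 2.01e-06) and 0.76 (SE 0.0783, adjusted p = 1.52e-06). TOMM40, which encodes the channel of the mitochondrial outer membrane translocase and lies directly next to APOE, fell by 0.65 on the log2 scale (SE 0.0799, adjusted p = 9.26e-06). Downstream, APOC4 had no count in any library and APOC2, the activator of lipoprotein lipase, had 3.73 and 4.91 counts in shCon against 5.51 and 8.67 in shUBXN1, so neither was tested. Among the 23 protein-coding genes tested within 500 kb on either side of APOE, APOC1 left out, 11 were called higher and 5 lower. Over all genes tested, 28.0% were called higher and 28.2% lower. The median log2 fold change of the 23 was 0.39. The highest value among these 23 was 1.83 for the ubiquitin ligase gene CBLC (SE 0.529), below that of APOE. The lowest was -1.35 for the DNA repair gene ERCC1 (SE 0.0830).

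APOB (ENSG00000084674, chr2:21001429-21044073, minus strand), the scaffold of VLDL, was the gene with the greatest difference on the lower side. It had 444 and 287 counts in shCon against 99 and 94 in shUBXN1. Both shUBXN1 libraries lay below both shCon libraries, and the shCon libraries differed more from each other than the shUBXN1 libraries did. The mean CPM was 14.4 ± 3.14 in shCon and 4.01 ± 0.0105 in shUBXN1, 3.60-fold lower, with a log2 fold change of -1.85 (SE 0.178). Without shCon replicate 1 the value was -1.61, and without shCon replicate 2 it was -2.07. The antisense transcript that overlaps 1.14% of its exon bases had no counts.

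APOH (ENSG00000091583, chr17:66212033-66256525, minus strand) had 812 and 726 counts in shCon against 352 and 390 in shUBXN1. The groups were well apart. Its mean CPM was 30.7 ± 0.307 in shCon and 15.4 ± 1.72 in shUBXN1, 1.99-fold lower, with a log2 fold change of -0.99 (SE 0.106), so that it lay just short of the fold change threshold of 2.

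APOL1 (ENSG00000100342, chr22:36253071-36267530, plus strand) showed the smallest difference among the called genes. Its shCon libraries were at 103 and 88.1 CPM and its shUBXN1 libraries at 77.8 and 62.4 CPM. The lower shCon library and the higher shUBXN1 library were closer to each other than the libraries within either group. The mean was 95.4 ± 10.4 CPM in shCon and 70.1 ± 10.9 CPM in shUBXN1, with a log2 fold change of -0.44 (SE 0.102). Its paralogs beside it on chromosome 22 were not called. APOL2 had a log2 fold change of -0.13 (SE 0.0778, adjusted p = 0.166), which passed the threshold at -0.20 without shUBXN1 replicate 1, while APOL3 was at 0.83 (SE 0.449, adjusted p = 0.132) and APOL4 at 0.91 (SE 0.661, adjusted p = 0.260), both with at most 29 counts in a library. On the other side, the myosin heavy chain gene MYH9 was at 0.10 (SE 0.0860, adjusted p = 0.356) and the mitochondrial thioredoxin gene TXN2 at -0.06 (SE 0.0775, adjusted p = 0.524), whereas FOXRED2 fell by 0.55 (SE 0.0913, adjusted p = 1.49e-04). Reads that match more than 1 APOL paralog may have been divided between them by the counting, so values of this family are less certain.

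The genes of the chromosome 11 cluster had few counts in these cells. APOA4 (ENSG00000110244, chr11:116820700-116823304, minus strand) had 18 and 10 counts in shCon against 53 and 24 in shUBXN1. The groups did not overlap, yet the shUBXN1 libraries lay further apart from each other than the lower of them lay from shCon. Its mean CPM was 0.550 ± 0.176 in shCon and 1.58 ± 0.789 in shUBXN1, with a log2 fold change of 1.51 (SE 0.496). The call was lost without shUBXN1 replicate 1, where the log2 fold change was 0.88, and without shCon replicate 2, where it was 1.21. An unnamed antisense gene that covers 43.2% of its exon bases had no counts.

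APOA1 (ENSG00000118137, chr11:116835751-116837622, minus strand), the main protein of HDL, had 13 and 22 counts in shCon against 11 and 12 in shUBXN1. Its shCon libraries differed from each other more than the groups did, and its log2 fold change of -0.56 (SE 0.535) was not called. APOC3 (ENSG00000110245, chr11:116829706-116833072, plus strand), the inhibitor of lipoprotein lipase, had no count in any library, where 3 counts, the limit that a count of 0 allows, correspond to 0.113 to 0.128 CPM. This limit covers counting error only. APOA5, further along the cluster, also had none. Around the cluster, the splicing factor gene BUD13, the zinc finger gene ZPR1 and the kinase gene SIK3 fell by 0.49 (SE 0.0994), 0.44 (SE 0.109) and 0.45 (SE 0.0887) on the log2 scale, PAFAH1B2 was at -0.03 (SE 0.0786) and SIDT2 rose by 0.63 (SE 0.106).

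The remaining HDL proteins were at the edge of detection. APOM (ENSG00000204444, chr6:31652416-31658210, plus strand) had 12 and 9 counts in shCon against 6.04 and 1 in shUBXN1. The shUBXN1 libraries were below the shCon libraries, but these few counts did not pass the filter and 11.0% of its exon bases overlap BAG6 on the other strand, which had 4098 to 4727 counts per library. APOA2 (ENSG00000158874, chr1:161222292-161223631, minus strand) had 1 count in 1 shUBXN1 library and none in the others. With so few counts, neither gene entered the fit.

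Levels of different genes were compared per length, in TPM (transcript counts divided by gene length and scaled to a common total). In shCon, APOC1 was highest at 77.0 ± 0.383 TPM, followed by APOL1 at 63.9 ± 8.29, APOH at 52.4 ± 0.585 and APOE at 22.0 ± 1.72 TPM (SD, n = 2). Each of these lay above the next in both libraries, whereas APOB at 2.05 ± 0.489, APOA1 and APOM overlapped with their neighbours in the order. In shUBXN1, APOE was highest at 205 ± 21.5 TPM, ahead of APOC1 at 128 ± 14.0, APOL1 at 49.1 ± 10.1 and APOH at 27.4 ± 1.62 TPM. APOE thus went from the fourth place to the first, and from rank 5993 to rank 658 among all genes by mean TPM. APOB at 0.593 ± 0.0296 TPM overlapped with APOM and lay below APOA4 and APOA1.

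Summed over the 10 genes, the level was 229 and 213 TPM in shCon and 446 and 381 TPM in shUBXN1. APOE made up 9.94% ± 0.272 of this sum in shCon and 49.5% ± 0.251 in shUBXN1. The share of APOC1 was 34.9% and 31.0%, that of APOL1 28.9% and 11.8%, that of APOH 23.8% and 6.69%, and that of APOB 0.927% and 0.144%. APOE alone thus came to nearly the same share of the sum in shUBXN1 as all others together. Because the sum itself was higher in shUBXN1, a lower share need not be a lower level. APOC1 had a lower share in shUBXN1 but a higher level, 128 TPM against 77.0 TPM in shCon. The ratio of APOE to APOC1 was 0.285 ± 0.0209 in shCon and 1.60 ± 0.00712 in shUBXN1. In bulk samples, a change in the share of cells that express a gene and a change in the RNA per cell cannot be told apart.

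**Figure D2:**
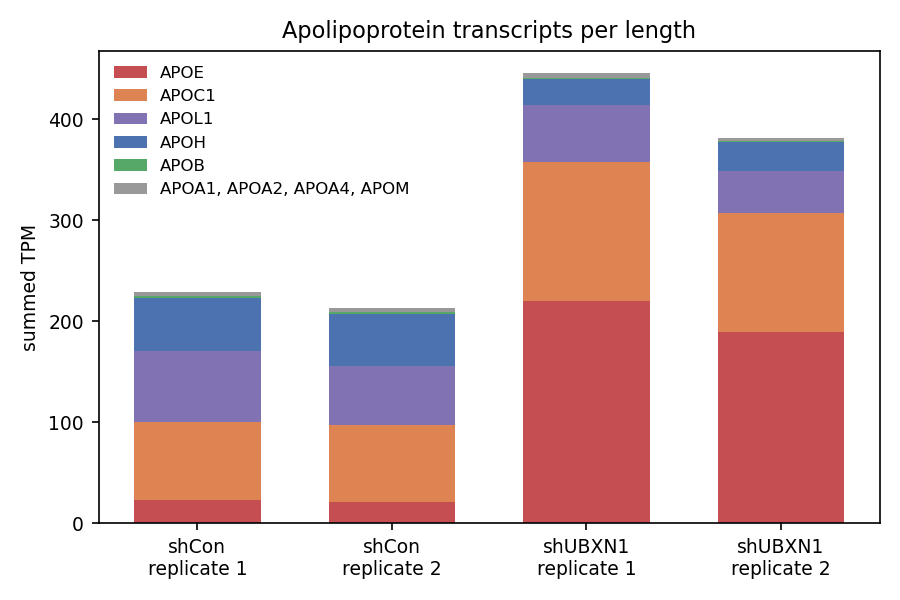
Summed level per length (TPM) of the apolipoprotein genes in each library, split by gene. APOC3 had no counts. The sums are 229 and 213 TPM in shCon and 446 and 381 TPM in shUBXN1, and the APOE part grows from 9.94% to 49.5% on average.

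A list of 22 other apolipoproteins and HDL-associated genes was measured alongside, of which 11 passed the filter. Of these, 3 rose, 3 fell and 5 were not called, with a median log2 fold change of 0.02, beside 0.02 over all genes tested. Over all genes tested, 28.0% were called higher and 28.2% lower. APOBR, a receptor for the APOB48 form on macrophages, had 16 and 11 counts in shCon against 102 and 65.9 in shUBXN1, with a log2 fold change of 2.68 (SE 0.381, adjusted p = 3.44e-05). Its exon bases overlap the lysosomal gene CLN3 on the opposite strand over 15.1%, and CLN3 rose too, so the strand of its reads is uncertain. APOL6, a cytoplasmic relative of APOL1, rose by 0.64 (SE 0.0801, adjusted p = 1.01e-05). The chaperone clusterin (CLU, also called apolipoprotein J), at 364 TPM in shCon and 493 TPM in shUBXN1, rose by 0.38 (SE 0.0864, adjusted p = 0.00184) and was above each of the 10 genes per length in both groups.

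On the lower side of that list were the HDL-associated antioxidant enzyme PON3 (log2 fold change -0.97, SE 0.162, adjusted p = 1.50e-04), its relative PON2 (-0.67, SE 0.0717, adjusted p = 2.27e-06) and APOO (-0.82, SE 0.157, adjusted p = 4.77e-04), which is a subunit of the mitochondrial MICOS complex despite its name. APOOL, a related MICOS subunit, was at 0.02 (SE 0.0801, adjusted p = 0.818) and APOLD1, an endothelial early response gene, at -0.00 (SE 0.323, adjusted p = 0.991). APOD had 11 and 10 counts in shCon against 6 and 8 in shUBXN1, APOF had 3 and 5 counts in shCon and none in shUBXN1, and PON1 had 19 and 10 counts in shCon against 8 and 4 in shUBXN1. These 3 genes, APOC2, LPA, SAA1 and SAA2 did not pass the filter. APOA5, APOC4, APOL5 and SAA4 had no counts.

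**Figure D3:**
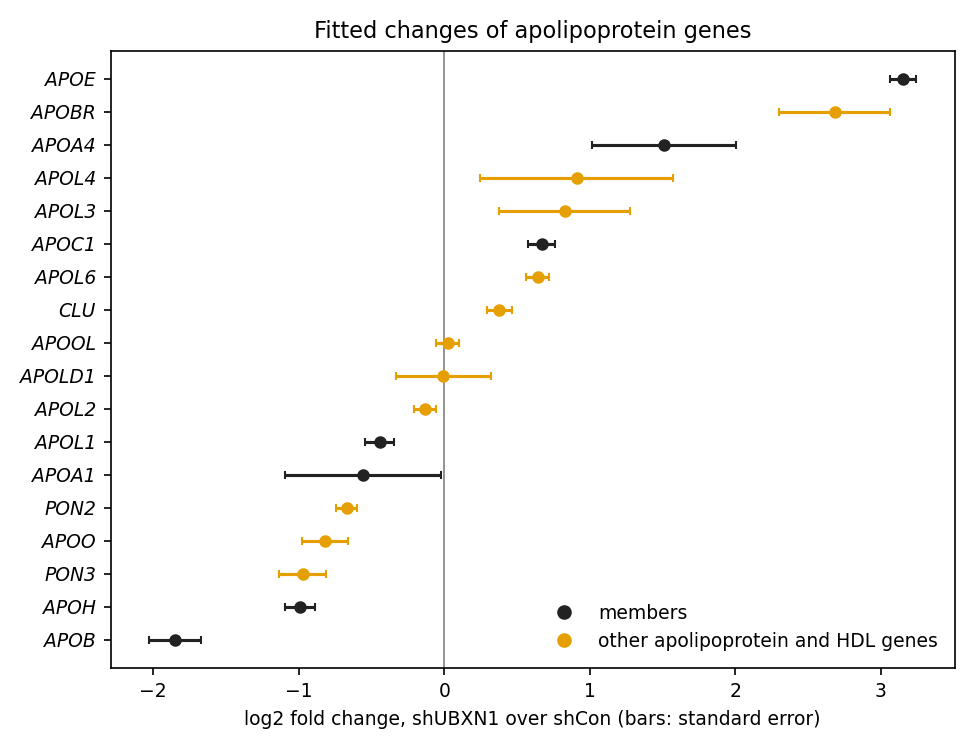
Log2 fold change (shUBXN1 over shCon) of the apolipoprotein and HDL genes that passed the filter on low counts, in order of size. Black points are genes of the 10 under study, orange points other genes, and bars the standard error of the fit. APOE at 3.16 and APOB at -1.85 form the ends, and the errors are widest for APOL4, APOA1 and APOA4.

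Lipid must be loaded onto APOB before VLDL can leave the endoplasmic reticulum. Of 22 genes of assembly and secretion, 19 passed the filter, and the median log2 fold change was 0.07. Of these, 4 rose and 6 fell, beside 28.0% and 28.2% of all genes tested. Total count scaling turned this split into 9 higher and 4 lower, and without shUBXN1 replicate 1 the number called higher was 8. MTTP, the microsomal transfer protein that loads APOB with triglyceride, had 609 and 507 counts in shCon against 196 and 166 in shUBXN1. Both shUBXN1 libraries were far below shCon, with a log2 fold change of -1.56 (SE 0.123, adjusted p = 1.11e-07), and MTTP was the one gene of this list past a fold change of 2. APOB and MTTP were thus both at a lower level in shUBXN1.

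Of 25 genes of receptors and uptake, 20 passed the filter, and the median was 0.10. Of these, 5 rose and 5 fell (8 and 5 under total count scaling), beside 28.0% and 28.2% of all genes tested. SORT1, a sorting receptor for APOB, rose by 1.59 (SE 0.0866, adjusted p = 3.29e-09), and LRP5, a Wnt co-receptor, fell by 1.05 (SE 0.0726, adjusted p = 3.22e-08). AMN, a partner of cubilin in the endocytosis of APOA1, had 13.1 and 9.07 counts in shCon against 91.2 and 69.9 in shUBXN1. Its log2 fold change was 2.92 (SE 0.382, adjusted p = 1.64e-05). However, its shCon replicate 2 was short of the filter cutoff, and 17.7% of its exon bases overlap genes on the opposite strand.

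Among 19 genes of lipases, transfer proteins and remodelling, 15 passed the filter, with a median of 0.20. Of these, 7 rose and 2 fell, beside 28.0% and 28.2% of all genes tested. LIPC, the hepatic lipase that binds remnants with APOE, had 623 and 550 counts in shCon against 2372 and 2079 in shUBXN1, with a log2 fold change of 1.98 (SE 0.0816, adjusted p = 2.46e-10). ANGPTL4, an inhibitor of lipoprotein lipase, had 327 and 180 counts in shCon against 1361 and 856 in shUBXN1, with a log2 fold change of 2.19 (SE 0.194, adjusted p = 3.58e-07). The proprotein convertase gene FURIN fell by 1.35 (SE 0.0801, adjusted p = 7.23e-09). GPIHBP1, the lipase anchor, was near the threshold (1.13, SE 0.396, adjusted p = 0.0254), and lost the call without shCon replicate 2 or shUBXN1 replicate 1 (0.89 and 0.56). The number called lower was 1 without shCon replicate 1, shCon replicate 2 or shUBXN1 replicate 2. Lipoprotein lipase (LPL) itself had no counts.

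Of 16 genes of cholesterol and phospholipid efflux, 13 passed the filter, with a median of 0.18. Of these, 6 rose and 4 fell (2 without shCon replicate 2), beside 28.0% and 28.2% of all genes tested. Past a fold change of 2, 4 were higher and 0 lower, beside 11.3% and 5.79% of all genes tested. These 4 include ABCG4, which entered the fit through shUBXN1 alone and so could be called only higher. NPC1, which exports cholesterol from lysosomes, rose by 1.42 (SE 0.0758, adjusted p = 2.71e-09), from 181 ± 4.43 to 485 ± 13.4 CPM. ABCA7, a lipid transporter related to ABCA1, rose by 1.11 (SE 0.0929, adjusted p = 2.08e-07) and the bile salt pump gene ABCB11 by 1.21 (SE 0.170, adjusted p = 3.13e-05). ABCG4, a sterol transporter, had 3 and 1 counts in shCon against 20 and 31 in shUBXN1, with a log2 fold change of 3.66 (SE 0.687, adjusted p = 4.04e-04). It passed the filter on low counts through the shUBXN1 libraries alone, and its fold change rests on 4 shCon counts. ABCA1, which lipidates APOA1 and APOE, was slightly lower at -0.23 (SE 0.0902, adjusted p = 0.0422), and lost the call under 8 other settings, among them leaving out shCon replicate 1 (-0.23), shCon replicate 2 (-0.25) or shUBXN1 replicate 2 (-0.14).

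**Figure D4:**
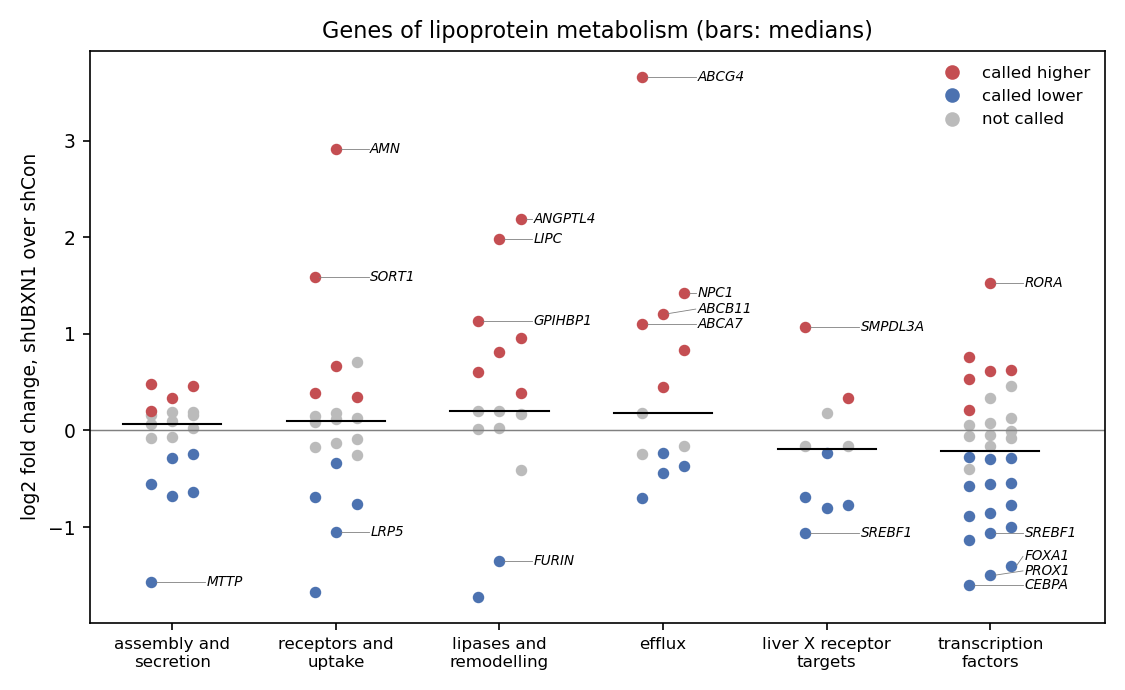
Log2 fold change (shUBXN1 over shCon) of the genes that passed the filter in 6 lists of lipoprotein metabolism. Points are genes (red called higher, blue called lower, grey not called), bars are medians, and genes past a fold change of 2 that the text names are labelled. The medians lie between -0.22 and 0.20, while single genes such as ABCG4 at 3.66 and CEBPA at -1.60 lie far from them.

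Genes known to respond to liver X receptors, as APOE and APOC1 do, moved in both directions. Of 15 such genes, 10 passed the filter, and the median was -0.20. Of these, 2 rose and 5 fell, beside 28.0% and 28.2% of all genes tested. Without shCon replicate 1 only 3 were called lower, and without shCon replicate 2 only 1 was called higher. SMPDL3A, a phosphodiesterase, rose by 1.07 (SE 0.132, adjusted p = 8.94e-06), whereas SREBF1, the regulator of fatty acid synthesis, fell by 1.07 (SE 0.0718, adjusted p = 2.50e-08). NR1H3, the gene of liver X receptor alpha, had 476 and 425 counts in shCon against 254 and 253 in shUBXN1, with a log2 fold change of -0.77 (SE 0.118, adjusted p = 6.98e-05).

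Of 36 transcription factors that act on apolipoprotein genes, 32 passed the filter, with a median of -0.22. Of these, 6 rose and 15 fell, beside 28.0% and 28.2% of all genes tested. CEBPA, a factor of hepatocyte differentiation, fell by 1.60 (SE 0.0959, adjusted p = 7.69e-09), the homeobox gene PROX1 by 1.50 (SE 0.167, adjusted p = 3.46e-06) and the pioneer factor FOXA1 by 1.40 (SE 0.0993, adjusted p = 4.03e-08). HNF4A, which binds the promoters of APOB, APOA1 and APOC3, fell by 0.30 (SE 0.0793, adjusted p = 0.00537), a call that was lost without shCon replicate 2, where the value was -0.27. The orphan receptor gene RORA rose by 1.53 (SE 0.316, adjusted p = 8.75e-04). Genes on the opposite strand cover 43.9% of the exon bases of CEBPA, so their reads cannot be told apart where strand was not used.

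Markers of the cell types that make apolipoproteins were measured beside these genes. Of 16 hepatocyte markers 14 passed the filter, 3 rose and 9 fell. Their summed level was 112 and 109 TPM in shCon and 79.0 and 76.0 TPM in shUBXN1. Over all genes tested, 28.0% were called higher and 28.2% lower, and the counts of each marker list stand beside these shares. Albumin (ALB) had 479 and 403 counts in shCon against 104 and 112 in shUBXN1, with a log2 fold change of -1.97 (SE 0.144, adjusted p = 5.49e-08). The 3 hepatocyte markers that rose were CYP2E1, ASGR1 and SERPINA1. CYP2E1, a cytochrome P450 of ethanol metabolism, had 5 and 5 counts in shCon against 171 and 170 in shUBXN1. It passed the filter only through shUBXN1 (log2 fold change 5.12, SE 0.338, adjusted p = 2.08e-08). The asialoglycoprotein receptor gene ASGR1 had 11 and 20 counts in shCon against 71.1 and 52 in shUBXN1 (2.02, SE 0.418, adjusted p = 8.92e-04). Its shCon replicate 1 was short of the filter cutoff. The protease inhibitor gene SERPINA1 was at 0.40 (SE 0.142, adjusted p = 0.0271). AFP was at -0.29 (SE 0.213, adjusted p = 0.266) and GPC3, the other marker of HCC, had no counts. Of 4 epithelial markers, 2 rose and 1 fell. CDH1 was at 1.18 (SE 0.0977, adjusted p = 1.83e-07), KRT18 at 0.31 (SE 0.0949, adjusted p = 0.0116) and KRT8 at -0.44 (SE 0.0993, adjusted p = 0.00185). The summed level of the 4, nearly all of it from the keratin genes KRT8 and KRT18, was 5336 and 5387 TPM in shCon and 4604 and 5021 TPM in shUBXN1. Of 13 macrophage and monocyte markers 4 passed the filter, none rose and 2 fell, and C1QA, C1QB, C1QC, AIF1 and VSIG4 had no counts. Their summed level was 101 and 105 TPM in shCon and 95.7 and 86.3 TPM in shUBXN1, nearly all of it CD68, a lysosomal protein that other cells also make. The enterocyte markers FABP2 and SI had no counts, and the other measured markers of that list, VIL1 and CDX2, fell. Of 7 markers of stellate cells and fibroblasts 3 passed the filter, 1 rose and 2 fell. COL1A1, which rose, had 10 and 4 counts in shCon against 58 and 59 in shUBXN1. DCN, which fell, had 17 and 13 counts in shCon against 2 and 1 in shUBXN1. COL1A1 passed the filter only through shUBXN1 and DCN only through shCon, so each could be called in 1 direction only. The 1 proximal tubule marker that passed was not called. The part of these changes of hepatocyte markers in the apolipoprotein values was not tested.

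Likeness to APOE was ranked among protein-coding genes with a mean log2 CPM above 2, outside the apolipoprotein genes under study. The genes most like APOE over the 4 libraries were those with the smallest Euclidean distance of centred log2 CPM. These were CNTNAP1 at 0.174, ENG at 0.178, IL11RA at 0.188, VCAM1 at 0.197 and IFITM10 at 0.199. Their log2 fold changes were 3.40, 3.42, 3.53, 3.12 and 2.98, close to the 3.16 of APOE. Likeness over 4 libraries of 2 groups mostly reflects a like difference between the groups. Per length, IFITM10 was the most abundant of them, at 4.62 ± 0.331 TPM in shCon and 38.1 ± 3.29 TPM in shUBXN1. None reached the level of APOE per length in either group.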

How the data were processed

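RNA of 2 shCon and 2 shUBXN1 libraries of MHCC97H cells was sequenced in paired ends. The authors deposited expected counts, unnormalized and with up to 2 decimals, beside the length of each gene. The submitters' processing notes list HISAT2 2.0.4, StringTie 1.3.0 and GRCh37, whereas the methods state GRCh38, TPM and limma. The counting tool, annotation release and strand setting are not given in the sources used here, so overlapping and antisense genes are uncertain. Of 61541 gene IDs, 61369 (99.7%) matched GENCODE v44 (GRCh38), whose symbols and coordinates are used. The labels and the methods name different library kits.

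The deposited expected counts were rounded to whole numbers, filtered with filterByExpr (minimum count 10), scaled by TMM (factors 0.967 to 1.06) and tested in R 4.3.3 by the quasi-likelihood method of edgeR 4.0.16 (functions glmQLFit and glmQLFTest), with 2 residual degrees of freedom, no block and Benjamini-Hochberg adjustment over 16863 genes. Standard errors are those of the log2 fold change in this fit, the prior count was 2 and the biological coefficient of variation was 0.0711. TPM was computed from the counts and the deposited lengths. Replicates differed by more than the sampling noise that their total counts allow, with a chi-square divided by its degrees of freedom of 3.83 (shCon) and 8.42 (shUBXN1). Alternatives were DESeq2 1.42.0, limma-voom and limma 3.58.1 on log2(TPM + 1), total count scaling, no filter, at least 10 counts in every library, unrounded counts, a GC correction (lowess, span 0.3), a replicate block and leaving out each library.

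The apolipoprotein genes and the gene and marker lists were chosen with earlier results of these data known. The text names the 10 genes, UBXN1, the other apolipoproteins, up to 6 genes per further list past an adjusted p of 0.05 and a fold of 2, fixed genes (MTTP, ABCA1, NR1H3, HNF4A, ALB and AFP), 3 protein-coding neighbours on each side of 3 loci, and the 5 genes most like APOE. Some genes that this rule names are not reported here. CBLC, ERCC1, CLN3, BAG6 and the cell type markers named were chosen after their values were seen. Promoter sequences are from RefSeq (GRCh38.p14).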

Additional observations from a re-analysis of the deposited data

How the results depend on the processing

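No called value changed direction under any alternative run. The log2 fold change of APOE was 3.24 under total count scaling, which moved the median of all genes tested from 0.02 to 0.10, and 2.92 under the GC correction. limma on log2(TPM + 1), a scale that understates changes of low genes, called 1023 genes higher and 522 lower at a fold of 2, among them 1 apolipoprotein gene higher and 0 lower (APOB at -0.93, short of that fold), and 6 pathway genes lower. DESeq2 called 1 apolipoprotein gene higher at a fold of 2, and leaving out each library gave 1 to 2 higher and 1 to 2 lower. APOA4 lost its call under DESeq2, and APOH passed a fold of 2 without shCon replicate 1 or without shUBXN1 replicate 2. APOA1 was at -0.96 without shCon replicate 1 and at -0.04 without shCon replicate 2. Of 91 alternative log2 fold changes of the apolipoprotein genes, 78 moved by less than the spread between replicates (1 SD) and 13 moved further. Of 503 values of the other genes tested by name, 478 kept their side of the threshold, 18 lost the call and 7 gained it. Same-numbered libraries deviated together with a correlation of 0.0393 over all genes tested. With 2 libraries per group, this value cannot settle whether the numbers pair the samples. With a replicate block, APOE was at 3.16 and UBXN1 at -2.03. With it, 5000 genes were called higher and 5023 lower, against 4727 and 4751 without the block. The groups hold 2 libraries each, which limits how well the spread of a single gene is known. At 0.113 to 0.128 CPM for 3 counts, a change in APOC3 or APOA2 was not detectable at this depth, and APOM was too low to be tested.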
